A study of Mus musculus with 10 samples.

Results

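The levels of 10 genes of growth factor signalling were followed across normal liver and liver tumours of the mouse by RNA sequencing. They encode the receptors for fibroblast growth factors (Fgfr1, Fgfr2, Fgfr3 and Fgfr4), the co-receptor β-Klotho (Klb) and its ligand FGF21 (Fgf21), members of the ERBB family (Egfr, Erbb2 and Erbb3) and the receptor for hepatocyte growth factor (Met). The genes were taken by symbol, and all 10 were found among the 16697 genes of the table that hold values. The labels give the genotype of the mice as wild type in all 3 groups. Normal livers formed the NL group (n = 4). Tumours of the c-MYC group (n = 3) arose after c-MYC had been delivered by hydrodynamic tail vein injection together with an empty pT3-EF1α vector, and tumours of the c-MYC/FOXO1AAA group (n = 3) after c-MYC with FOXO1AAA, a tagged and constitutively active mutant of the transcription factor FOXO1, in the same vector. A transposase plasmid was part of both mixtures. Hydrodynamic injection presses plasmids mainly into hepatocytes, while the EF1α promoter itself is active in many cell types. The labels name the strain C57BL/6 and the methods FVB/N, and a description of the control tumours adds MCL1 to c-MYC. The methods give as many injected mice and normal livers as there are libraries. Ages were not given in the sources used here. The libraries served to ask how active FOXO1 alters the expression profile of c-MYC tumours.

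All receptors named here other than β-Klotho are tyrosine kinases. A ligand brings a pair of receptors together, the receptors phosphorylate each other, and adaptors such as GRB2, FRS2 and GAB1 pass the signal to RAS, ERK and AKT. In the liver, FGFR4 with β-Klotho receives FGF15 from the intestine and restrains bile acid synthesis, while FGF21 is itself a hormone made by hepatocytes. FGFR1 is the receptor that FGF21 uses with β-Klotho in adipose tissue. EGFR and ERBB3 are the main ERBB receptors of hepatocytes, ERBB2 has no known ligand and acts as a partner of the others, and MET drives growth of hepatocytes after injury.

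Values are given as FPKM, fragments scaled to gene length and library size, on the scale of the deposited table, in which a small prior count keeps genes without reads above 0. The reads in listed genes ranged from 13.12 M to 20.55 M per library (M, mega). Foxo1 stood at 7.14 FPKM ± 0.532 (mean ± SD, n = 4) in NL, 5.63 ± 0.721 (mean ± SD, n = 3) in c-MYC and 83.1 ± 12.8 (mean ± SD, n = 3) in c-MYC/FOXO1AAA. Reads at the mouse Myc gene ran against the labels, at 11.2 FPKM ± 8.17 (mean ± SD, n = 4) in the libraries labelled NL, 0.771 ± 0.254 (mean ± SD, n = 3) in those labelled c-MYC and 0.983 ± 0.118 (mean ± SD, n = 3) in those labelled c-MYC/FOXO1AAA. They do not show the delivered c-MYC, and whether transgene reads would have been assigned to this gene is not given in the sources used here. The summed level of 10 hepatocyte markers, all of them listed, ranged from 82800 to 92600 FPKM in NL, from 3930 to 5770 in c-MYC and from 893 to 1570 in c-MYC/FOXO1AAA. The 8 markers of stellate cells and fibroblasts summed to 84.6 to 106 FPKM, 12.2 to 39.7 FPKM and 449 to 495 FPKM. The 8 skeletal muscle markers, which share Des with the former list, summed to 2.24 to 3.28 FPKM, 1.52 to 6.26 FPKM and 196 to 247 FPKM, and Myod1, Myog, Myf5 and Chrna1 held 0 reads in every NL and c-MYC library. In tissue of this kind, fewer cells of a type and less RNA per cell cannot be told apart.

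The 10 genes were placed on the GRCm38 build, with positions from GENCODE release M21. Fgfr1 is on chromosome 8 (25513654 to 25575718), Fgfr2 on chromosome 7 (130162451 to 133123350), Fgfr3 on chromosome 5 (33721674 to 33737068) and Fgfr4 on chromosome 13 (55152640 to 55168759). The annotated span of Fgfr2, on the minus strand, extends upstream beyond its RefSeq promoter window (130266809 to 130267058). Klb is on chromosome 5 (65348314 to 65384007), Fgf21 on chromosome 7 (45613886 to 45615490) and Met on chromosome 6 (17463800 to 17573980). Egfr and Erbb2 share chromosome 11 (16752203 to 16918158 and 98412470 to 98437716), and Erbb3 is on chromosome 10 (128567523 to 128589652). The lengths behind the FPKM each equalled that of an annotated transcript, from 951 bp for Fgf21 to 10208 bp for Egfr. For Fgfr2 this length was 2463 bp against 10328 bp for all its exons together, so its level relative to other genes depends on that choice. Exons of Fgfr1, Fgfr3 and Erbb2 overlap genes on the opposite strand (Gm16159, G630022F23Rik and Mien1) and those of Fgfr2 overlap Ctbp2 on the same strand. Without a stated strand setting, reads from exons that overlap on opposite strands cannot be told apart. For Fgfr2 and Ctbp2, on the same strand, a strand setting would not separate them.

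RefSeq promoter sequences (GRCm38.p6) were at hand for 8 of the 10 genes, in 9 windows, since Fgfr3 has 2 starts. Fgfr1 and Erbb3 had no entry. The 250 bases before each start were searched on both strands for the E-box CACGTG, the site that MYC binds with its partner MAX, and for the FOXO core GTAAACA, whose other strand reads TGTTTAC. Across all 32851 promoter windows of this length, 6.02% held the E-box and 3.17% the FOXO core. Among the 9 windows the E-box occurred in those of Met, 126 bases before the start, and Fgf21, 50 bases before the start, and the FOXO core in 0 of 9. These letters alone do not show that a factor was bound. Shown here are both windows that hold an E-box, and those of Egfr and Erbb2, the pair of ERBB genes that moved furthest apart in the tumours. Each runs 5′ to 3′ towards the start site, and capitals mark the E-box.
Fgf21 promoter, chr7:45615491-45615740, minus strand: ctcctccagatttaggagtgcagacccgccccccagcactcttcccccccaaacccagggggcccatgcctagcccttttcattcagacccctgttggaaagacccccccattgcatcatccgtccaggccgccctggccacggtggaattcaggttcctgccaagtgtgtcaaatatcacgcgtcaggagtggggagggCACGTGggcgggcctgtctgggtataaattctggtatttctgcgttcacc
Met promoter, chr6:17463707-17463956, plus strand: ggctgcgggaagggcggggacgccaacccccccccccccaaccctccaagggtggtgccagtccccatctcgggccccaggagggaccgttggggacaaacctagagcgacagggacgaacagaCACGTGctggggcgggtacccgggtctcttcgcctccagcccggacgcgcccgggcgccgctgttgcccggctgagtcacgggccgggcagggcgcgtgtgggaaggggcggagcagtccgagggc
Egfr promoter, chr11:16751953-16752202, plus strand: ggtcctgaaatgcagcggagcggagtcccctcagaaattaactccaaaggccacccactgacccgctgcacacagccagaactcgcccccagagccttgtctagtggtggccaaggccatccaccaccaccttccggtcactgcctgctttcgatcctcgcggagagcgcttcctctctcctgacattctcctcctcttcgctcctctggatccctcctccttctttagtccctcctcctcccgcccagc
Erbb2 promoter, chr11:98412234-98412483, plus strand: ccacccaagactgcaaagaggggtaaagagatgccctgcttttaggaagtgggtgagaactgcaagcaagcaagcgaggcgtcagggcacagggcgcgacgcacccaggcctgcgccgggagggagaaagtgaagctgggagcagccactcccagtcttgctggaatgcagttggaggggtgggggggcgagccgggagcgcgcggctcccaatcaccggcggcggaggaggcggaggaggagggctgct
The GC content of these windows was 59.6% for Fgf21, 74% for Met, 60.8% for Egfr and 66% for Erbb2, and the median of all windows was 52.4%.

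Normal liver was led by Egfr. Per gene length, its mean of 69.2 FPKM was followed by Erbb3 (38 FPKM) and Fgfr4 (30.3 FPKM), and the libraries of these genes did not overlap. Fgfr2 (20.3 FPKM) and Met (16.5 FPKM) overlapped each other, as did Fgfr3 (9.86 FPKM) and Klb (9.25 FPKM), and Fgf21 (2.2 FPKM) and Fgfr1 (1.76 FPKM). Erbb2 stood last at 0.489 FPKM. In c-MYC tumours the order was Klb (29.4 FPKM), Fgfr4 (17.4 FPKM) and then Fgfr3, Erbb3, Met and Fgfr1 between 11.7 and 7.8 FPKM, where each overlapped the next. Erbb2 (5.01 FPKM) stood apart below them, and Egfr, Fgfr2 and Fgf21, at 0.28 FPKM or less, overlapped at the end. In c-MYC/FOXO1AAA tumours Fgfr1 (23.1 FPKM) and Erbb2 (16.7 FPKM) overlapped at the top, Met (8.03 FPKM) stood apart in the third place, and the other 7 genes lay at 3.4 FPKM or less, each overlapping the next. Erbb2 and Fgfr1, the genes with the lowest means in NL, thus had the highest means in c-MYC/FOXO1AAA.

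**Figure D1:**
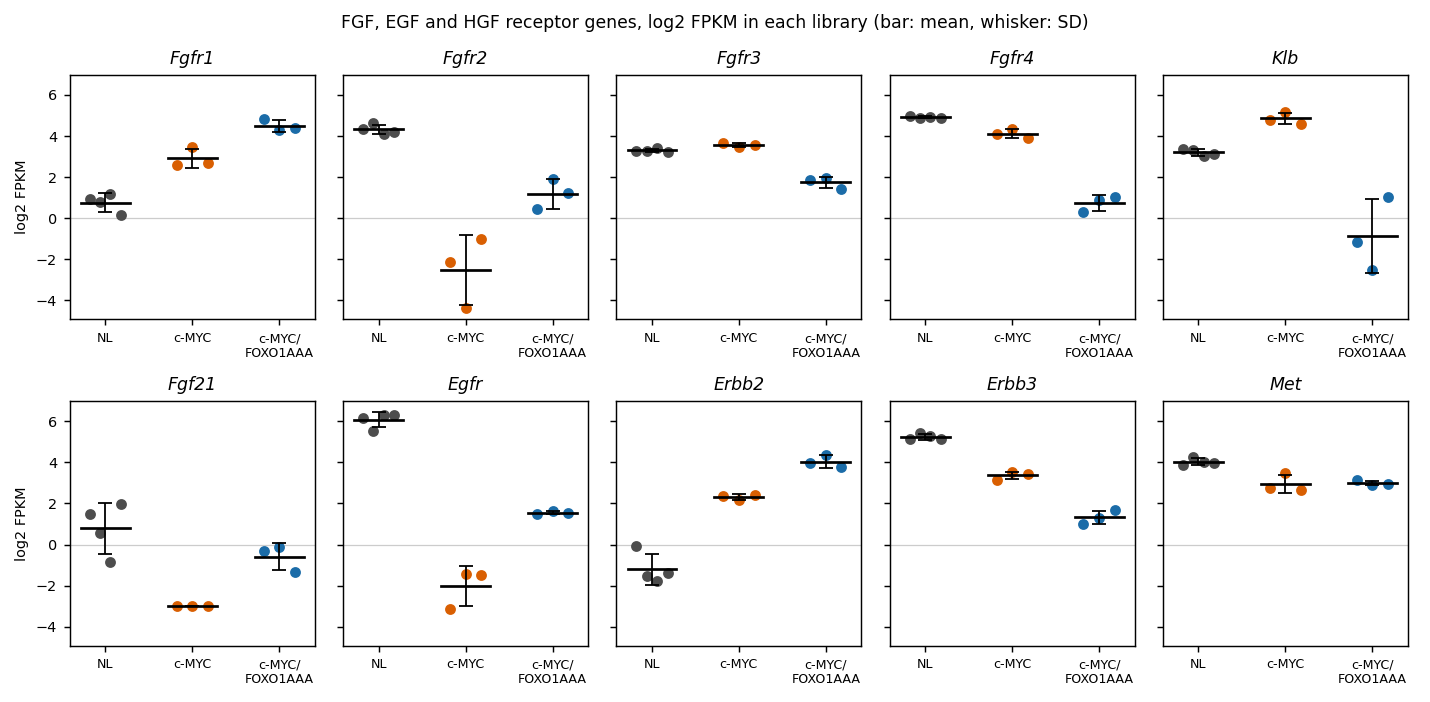
Log2 FPKM of the 10 genes (y axis) in each library of NL, c-MYC and c-MYC/FOXO1AAA (x axis), 1 panel per gene, with the points as libraries, the bar as the group mean and the whisker as the SD. Fgfr1 and Erbb2 climb from NL over c-MYC to c-MYC/FOXO1AAA, Egfr and Fgfr2 are lowest in c-MYC, and Klb is highest there.

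Differences between groups were tested with limma treat on the log2 values of all 10 libraries for a change above 1.5-fold, with Benjamini-Hochberg adjustment over 14017 genes. The 3 comparisons share groups and are therefore not independent of each other. In c-MYC relative to NL, 2 of the 10 genes were higher and 5 lower past the threshold, where 24.5% of all genes tested were higher and 23.6% lower. Their libraries did not overlap between the groups for 10 of 10 genes, as for 73.9% of all genes. In c-MYC/FOXO1AAA against c-MYC, 5 were higher and 4 lower, against 15.9% and 12.7% of all genes, and 9 did not overlap, against 63.4%. In c-MYC/FOXO1AAA relative to NL, 2 were higher and 7 lower, against 31.2% and 26.6%, and 9 did not overlap, against 80.1%. The median log2 fold changes of the 10 genes were -0.95, 0.83 and -2.34 in the 3 comparisons, beside 0.08, 0.03 and 0.21 for all genes. Their median absolute log2 fold changes were 2.01, 2.23 and 3.83, beside 0.98, 0.59 and 1.23. The scale matters for comparisons with NL. The effective library sizes of the authors were 0.6486 to 0.6838 times the reads in NL, 1.256 to 1.295 times in c-MYC and 1.454 to 1.502 times in c-MYC/FOXO1AAA. With every library at the same FPKM total, the median log2 fold changes of all genes became 1.01, 0.2 and 1.31. Of the 10 genes, 4 were then called higher and 4 lower in c-MYC versus NL. The numbers were 5 and 4 in c-MYC/FOXO1AAA against c-MYC, and 2 and 5 in c-MYC/FOXO1AAA versus NL. Of all 14017 genes tested, 7061 were then higher and 1895 lower in c-MYC versus NL. For all genes the numbers were 2594 and 1482 in c-MYC/FOXO1AAA against c-MYC, and 8129 and 2099 in c-MYC/FOXO1AAA versus NL.

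**Figure D2:**
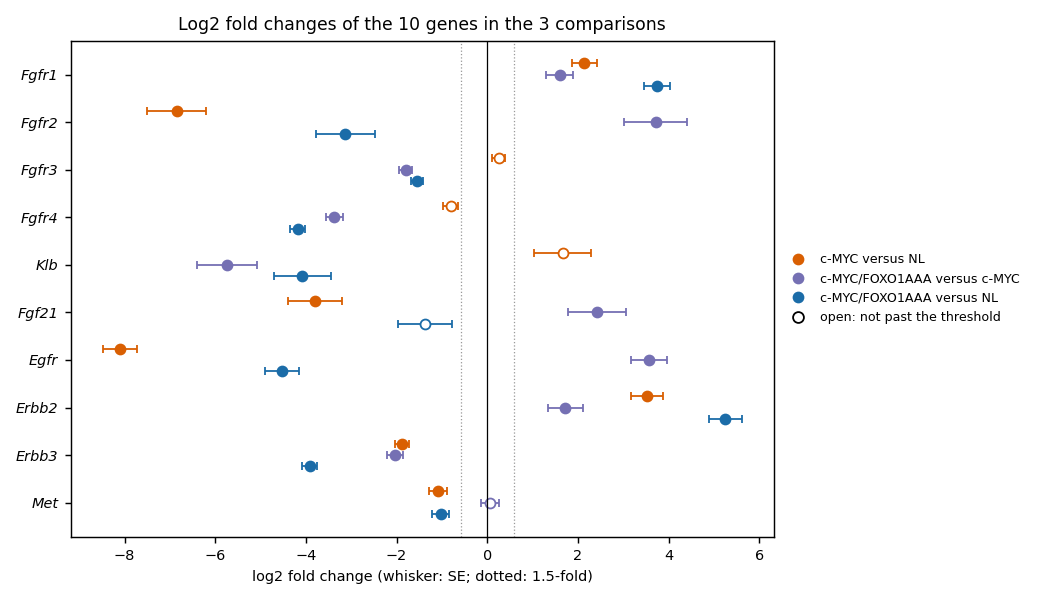
Log2 fold changes (x axis) of the 10 genes (y axis) in the 3 comparisons, with the SE as whiskers, filled points past the threshold of limma treat and dotted lines at 1.5-fold. Egfr (-8.10) and Fgfr2 (-6.85) show the largest decreases in c-MYC versus NL, and Klb (-5.74) the largest in c-MYC/FOXO1AAA versus c-MYC.

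Among the FGF receptors, Fgfr4, the main FGF receptor of hepatocytes, held 31.5, 29.1, 30.8 and 29.9 FPKM in the NL libraries, 17.3, 20 and 15 FPKM in c-MYC and 1.23, 1.88 and 2.03 FPKM in c-MYC/FOXO1AAA. The 3 groups did not overlap. Fgfr4 fell in c-MYC/FOXO1AAA, with log2 fold changes of -3.37 against c-MYC (SE 0.18, adjusted limma p 4.83e-07) and -4.18 against NL (SE 0.17, adjusted limma p 1.16e-08). The difference between c-MYC and NL (-0.81, SE 0.17, adjusted limma p 0.197) was not past the threshold, and its sign turned to 0.12 with the same FPKM total.

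Fgfr1, the FGF receptor of many mesenchymal cells, showed the opposite course. Its values were 1.91, 1.76, 2.26 and 1.1 FPKM in NL, 5.94, 11 and 6.47 FPKM in c-MYC and 28.5, 19.4 and 21.2 FPKM in c-MYC/FOXO1AAA, with no overlap between groups. Fgfr1 rose by 2.14 from NL to c-MYC (SE 0.28, adjusted limma p 0.000348) and by a further 1.6 from c-MYC to c-MYC/FOXO1AAA (SE 0.3, adjusted limma p 0.0129), on the log2 scale. Without c-MYC 1 or without c-MYC/FOXO1AAA 1 the latter had a adjusted limma p of 0.0527 or 0.0553. From NL to c-MYC/FOXO1AAA it rose by 3.74 (SE 0.28, adjusted limma p 1.15e-06). From c-MYC to c-MYC/FOXO1AAA, 6 of 8 stellate cell and fibroblast markers and 6 of 7 tested skeletal muscle markers rose and none fell. From NL to c-MYC, 1 of the 8 rose and 4 fell, and 1 of the 7 rose and 1 fell. The part of these markers in the level of Fgfr1 was not tested in either step.

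Fgfr2, a receptor with epithelial and mesenchymal splice forms, was nearly lost in c-MYC. It held 560, 569, 413 and 411 reads in NL, 8, 0 and 20 reads in c-MYC and 79, 272 and 112 reads in c-MYC/FOXO1AAA. The FPKM were 20.6, 24.6, 17.2 and 18.6 in NL, 0.225, 0.0481 and 0.49 in c-MYC and 1.35, 3.75 and 2.37 in c-MYC/FOXO1AAA. The c-MYC tumours thus lay lowest, and c-MYC/FOXO1AAA tumours lay between them and NL. The log2 fold changes were -6.85 in c-MYC versus NL (SE 0.65, adjusted limma p 9.93e-06), 3.71 in c-MYC/FOXO1AAA versus c-MYC (SE 0.7, adjusted limma p 0.0032) and -3.13 in c-MYC/FOXO1AAA versus NL (SE 0.65, adjusted limma p 0.00331). The low c-MYC values set their size, since without c-MYC 2 the first and the second were -5.92 and 2.78, and without c-MYC 3 they were -7.59 and 4.46. The c-MYC mean of Fgfr2 was 0.137 FPKM without c-MYC 3, in place of 0.254 FPKM.

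Fgfr3, the receptor best known for restraining bone growth, was lowest in c-MYC/FOXO1AAA. It held 9.65, 9.59, 10.7 and 9.47 FPKM in NL, 12.5, 10.9 and 11.8 FPKM in c-MYC and 3.66, 3.84 and 2.71 FPKM in c-MYC/FOXO1AAA. The c-MYC libraries lay a little above NL without passing the threshold (log2 fold change 0.25, SE 0.14, adjusted limma p 1), although with the same FPKM total the log2 fold change was 1.18 (adjusted limma p 0.00221). Fgfr3 was lower in c-MYC/FOXO1AAA, by a log2 fold change of -1.80 against c-MYC (SE 0.15, adjusted limma p 3.7e-05). Against NL this was -1.55 (SE 0.14, adjusted limma p 4.6e-05), a call that was lost with the same FPKM total (-0.45, adjusted limma p 0.911).

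The share of each receptor in the summed FPKM of Fgfr1 to Fgfr4 does not depend on the scaling of the libraries. The shares do depend on the length used for each gene, which for Fgfr2 was 2463 bp against 10328 bp for all its exons. Fgfr4 made up 48.8% ± 2.73 (mean ± SD, n = 4) of the sum in NL, 46.8% ± 2.01 (mean ± SD, n = 3) in c-MYC and 5.74% ± 1.93 (mean ± SD, n = 3) in c-MYC/FOXO1AAA. Fgfr1 made up 2.82%, 20.6% and 74.7%, Fgfr2 32.5%, 0.73% and 8.4%, and Fgfr3 15.9%, 31.9% and 11.1%. The family thus passed from Fgfr4 with Fgfr2 in NL to Fgfr4 with Fgfr3 in c-MYC and to Fgfr1 in c-MYC/FOXO1AAA, while its sum went from 62.2 FPKM ± 2.67 (mean ± SD, n = 4) to 37.3 ± 4.24 (mean ± SD, n = 3) and 30.7 ± 3.57 (mean ± SD, n = 3). Unlike the shares, this sum depends on the scaling of the libraries. Whether it falls from NL with the same FPKM total was not tested. The Fgfr4 share differed by -41 percentage points between c-MYC/FOXO1AAA and c-MYC (exact permutation test, 2-sided, p = 0.1) and by -43.1 between c-MYC/FOXO1AAA and NL (exact permutation test, 2-sided, p = 0.0571). Both are the smallest p these group sizes allow, so the test could not reach 0.05. Between c-MYC and NL the share differed by -2.07 percentage points (exact permutation test, 2-sided, p = 0.343) and the libraries overlapped.

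Klb, the co-receptor without which FGF15 and FGF21 do not signal, was highest in c-MYC. Its values were 10.2, 10, 8.08 and 8.69 FPKM in NL, 27.9, 35.9 and 24.4 FPKM in c-MYC and 0.446, 0.175 and 2.06 FPKM in c-MYC/FOXO1AAA. Every c-MYC library lay above every NL library, and every c-MYC/FOXO1AAA library below. Its log2 fold change was -5.74 in c-MYC/FOXO1AAA against c-MYC (SE 0.67, adjusted limma p 9.6e-05) and -4.08 against NL (SE 0.63, adjusted limma p 0.000348). The difference between c-MYC and NL was 1.66 (SE 0.63, adjusted limma p 0.119) and missed the threshold. Fitted on these groups alone, where the spread of the c-MYC/FOXO1AAA libraries does not enter, its SE was 0.15 and the adjusted limma p 0.000175. Over the alternative settings that kept all libraries the adjusted p of this difference ranged from 0.00609 to 0.388 with limma. The c-MYC/FOXO1AAA mean of 0.895 FPKM rested on c-MYC/FOXO1AAA 3 and was 0.311 FPKM without it. The log2 fold change against c-MYC was -6.7 without that library and -4.92 without c-MYC/FOXO1AAA 2, and against NL it was -5.04 and -3.26. Fgfr4 and Klb, which form the FGF15 receptor together, had a log2 ratio of Fgfr4 over Klb of 1.54 to 1.93 in NL and -0.84 to -0.69 in c-MYC, and of 1.47, 3.42 and -0.02 in the c-MYC/FOXO1AAA libraries.

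Fgf21, the hormone, was low in all groups. It held 28, 12, 4 and 33 reads in NL, 0 reads in each c-MYC library and 16, 23 and 5 reads in c-MYC/FOXO1AAA. Taking 3 reads per library as the limit that a count of 0 allows, the NL mean was at least 12.2-fold higher than c-MYC, and the lowest NL library at least 2.53-fold higher. The c-MYC/FOXO1AAA mean was at least 3.45-fold higher than c-MYC, and its lowest library at least 1.57-fold higher. These limits allow for counting error only in the c-MYC counts of 0. The counts of the higher group, as low as 4 and 5 reads, were taken as exact. Both differences were past the threshold (adjusted limma p 0.000479 and 0.0304), but the latter was lost without any of 5 of the 6 libraries compared (adjusted limma p 0.0668 to 0.102), and with a pseudocount of 0.1 or 1 (adjusted limma p 0.101 and 1). Between c-MYC/FOXO1AAA and NL the libraries overlapped, and the log2 fold change of -1.38 (SE 0.6, adjusted limma p 0.171) was not past the threshold. Without NL 3, the lowest NL library, it was -1.93 (adjusted limma p 0.0133).

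Within the ERBB family, Egfr showed the largest change of the 10 genes. It held 8127, 4434, 7900 and 7251 reads in NL, 19, 69 and 65 reads in c-MYC and 707, 949 and 570 reads in c-MYC/FOXO1AAA. In FPKM these were 72.1, 46.1, 79.3 and 79.2, then 0.113, 0.37 and 0.358, and then 2.82, 3.12 and 2.86. The NL libraries were far above all tumours, and the c-MYC/FOXO1AAA libraries were all above c-MYC. The c-MYC mean of Egfr was 0.406% of the NL mean, a log2 fold change of -8.10 (SE 0.38, adjusted limma p 4.49e-08). Egfr then rose by 3.57 from c-MYC to c-MYC/FOXO1AAA (SE 0.4, adjusted limma p 0.000106), where it stood at 4.24% of the NL mean (log2 fold change -4.53, SE 0.38, adjusted limma p 2.92e-06).

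Erbb2 moved the other way. It held 51, 15, 13 and 16 reads in NL, 477, 416 and 494 reads in c-MYC and 1915, 3107 and 1357 reads in c-MYC/FOXO1AAA. The FPKM were 0.945, 0.341, 0.289 and 0.379 in NL, of which NL 1 was the highest, then 5.21, 4.43 and 5.39 in c-MYC and 15.5, 20.8 and 13.8 in c-MYC/FOXO1AAA. No groups overlapped. Erbb2 rose by 3.52 on the log2 scale from NL to c-MYC (SE 0.36, adjusted limma p 2.17e-05) and by 5.25 from NL to c-MYC/FOXO1AAA (SE 0.36, adjusted limma p 4.28e-07). The step from c-MYC to c-MYC/FOXO1AAA was 1.72 (SE 0.38, adjusted limma p 0.0258), and without c-MYC 1, c-MYC 2, c-MYC/FOXO1AAA 1 or c-MYC/FOXO1AAA 2 its adjusted limma p lay between 0.0531 and 0.095.

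Erbb3, the neuregulin receptor with little kinase activity of its own, declined in both steps. It held 35.1, 43.6, 38.8 and 34.7 FPKM in NL, 8.96, 11.4 and 10.8 FPKM in c-MYC and 2.02, 2.46 and 3.16 FPKM in c-MYC/FOXO1AAA. The groups did not overlap. The log2 fold change of Erbb3 was -1.88 from NL to c-MYC (SE 0.16, adjusted limma p 2.34e-05), -2.04 from c-MYC to c-MYC/FOXO1AAA (SE 0.17, adjusted limma p 3.11e-05) and -3.92 from NL to c-MYC/FOXO1AAA (SE 0.16, adjusted limma p 1.31e-08).

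Egfr made up 63.5% ± 8.3 (mean ± SD, n = 4) of the summed FPKM of Egfr, Erbb2 and Erbb3 in NL, 1.75% ± 0.832 (mean ± SD, n = 3) in c-MYC and 13.4% ± 1.35 (mean ± SD, n = 3) in c-MYC/FOXO1AAA. Erbb3 made up 36%, 66.1% and 11.7%, and Erbb2 0.457%, 32.2% and 74.9%. A different receptor therefore led the family in each group. The sum fell from 108 FPKM ± 12.5 (mean ± SD, n = 4) in NL to 15.7 ± 1.21 (mean ± SD, n = 3) in c-MYC and was 22.2 ± 3.62 (mean ± SD, n = 3) in c-MYC/FOXO1AAA. Its size relative to NL, unlike the shares, depends on the scaling of the libraries. The Egfr share differed by -61.8 percentage points between c-MYC and NL (exact permutation test, 2-sided, p = 0.0571), by 11.6 between c-MYC/FOXO1AAA and c-MYC (exact permutation test, 2-sided, p = 0.1) and by -50.2 between c-MYC/FOXO1AAA and NL (exact permutation test, 2-sided, p = 0.0571), again the smallest p possible. The log2 ratio of Erbb2 over Erbb3 ran from -7.07 to -5.21 in NL, from -1.36 to -0.78 in c-MYC and from 2.13 to 3.08 in c-MYC/FOXO1AAA.

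**Figure D3:**
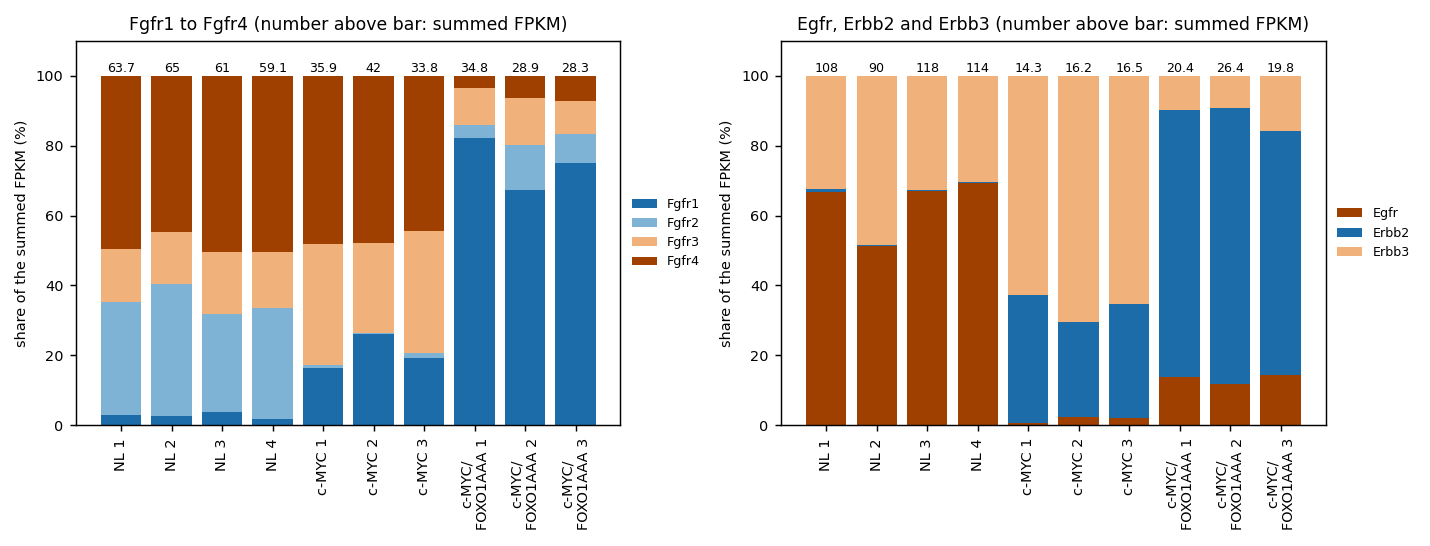
Share (y axis, percent) of each receptor in the summed FPKM of Fgfr1 to Fgfr4 (left) and of Egfr, Erbb2 and Erbb3 (right), 1 stacked bar per library (x axis), with the summed FPKM above each bar. At the gene lengths used, Fgfr4 holds about the same share in NL and c-MYC, and Fgfr1 fills most of the c-MYC/FOXO1AAA bars. The leading ERBB gene is Egfr in NL, Erbb3 in c-MYC and Erbb2 in c-MYC/FOXO1AAA.

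Met, the HGF receptor, was the steadiest of the receptors between the tumour groups. It held 14.7, 19.4, 16.2 and 15.8 FPKM in NL, 6.74, 11 and 6.21 FPKM in c-MYC and 8.71, 7.56 and 7.83 FPKM in c-MYC/FOXO1AAA. Both tumour groups lay below NL and overlapped each other. Against NL the log2 fold change of Met was -1.09 in c-MYC (SE 0.19, adjusted limma p 0.0246) and -1.03 in c-MYC/FOXO1AAA (SE 0.19, adjusted limma p 0.0326). Neither call held with the same FPKM total, where the log2 fold changes were -0.16 and 0.06 (adjusted limma p 1 for both). The first was also lost without NL 2, c-MYC 1 or c-MYC 3 (adjusted limma p 0.0622 to 0.109) and the second without NL 2, NL 3, c-MYC/FOXO1AAA 2 or c-MYC/FOXO1AAA 3 (adjusted limma p 0.0516 to 0.0852). Between the tumours the log2 fold change was 0.05 (SE 0.2, adjusted limma p 1).

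The genes with the most similar course were sought, at a mean level of 5 FPKM or more in a group, by Pearson's r of log2 FPKM over the 10 libraries. The libraries fall into 3 groups, so r mainly describes the pattern of group means. The nearest genes were Slc23a1 (r = 0.9991) and Cobll1 (0.9974) for Fgfr4, Pklr (0.9978) and Gckr (0.9975) for Erbb3, and Cp (0.9959) and Mfsd2a (0.994) for Egfr. For Erbb2 they were Cdc25b (0.9972) and Tfap4 (0.9972), for Fgfr1 Rprd1a (0.9937), and for Klb Gldc (0.9934) and Ocln (0.9931). Fgfr2 was nearest to Ildr2 (0.9916) and Crcp (0.9864), Fgfr3 to Pla2g6 (0.9806) and Uqcrc2 (0.9802), Met to Clec16a (0.9801) and Tut7 (0.9742), and Fgf21 to Nr1d1 (0.974) and Angel2 (0.9665). Among the 10 genes themselves, r was 0.948 for Fgfr1 with Erbb2 and for Fgfr4 with Erbb3, 0.935 for Fgfr2 with Egfr, and -0.961 for Erbb3 with both Fgfr1 and Erbb2.

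Other genes of the pathways were taken from 8 lists with 164 genes, of which 134 were listed and 109 tested. In c-MYC versus NL 19 of them were higher and 39 lower (17.4% and 35.8%, beside 24.5% and 23.6% of all genes). In c-MYC/FOXO1AAA against c-MYC the numbers were 40 and 23 (36.7% and 21.1%, beside 15.9% and 12.7%). In c-MYC/FOXO1AAA versus NL they were 40 and 38 (36.7% and 34.9%, beside 31.2% and 26.6%). The shares of all genes also stand beside the counts of each list below.

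Of the FGF ligands and co-receptors, 6 of 26 genes were tested. Fgf1, a ligand of all FGF receptors, fell from 28 FPKM ± 1.93 (mean ± SD, n = 4) in NL to 0.242 ± 0.0784 (mean ± SD, n = 3) in c-MYC (log2 fold change -6.89, adjusted limma p 5.01e-09), and Fgfrl1, a receptor without a kinase domain, fell by 2.5. None rose. From c-MYC to c-MYC/FOXO1AAA 4 rose and none fell. Fgf7, a mesenchymal ligand of an Fgfr2 splice form, held 1, 0, 4 and 0 reads in NL (NL 3 being the highest), 4, 2 and 0 in c-MYC and 130, 175 and 84 in c-MYC/FOXO1AAA (adjusted limma p 0.000144 between the tumours). Fgf13, which acts inside cells, held at most 1 read in any NL or c-MYC library and 287, 324 and 134 reads in c-MYC/FOXO1AAA (adjusted limma p 3.88e-07). Flrt2 rose by 4.1, and Fgf1 by 1.24 with a adjusted limma p of 0.048, from 0.242 FPKM to 0.564 ± 0.118 (mean ± SD, n = 3). The stellate cell and fibroblast markers rose with these genes, and their part was not tested.

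Of 12 EGF and neuregulin ligands, 3 were tested. Hbegf, an EGFR ligand, rose from 0.441 FPKM ± 0.167 (mean ± SD, n = 4) in NL to 4.48 ± 0.679 (mean ± SD, n = 3) in c-MYC (log2 fold change 3.41, adjusted limma p 1.03e-05) and was 3.47 ± 0.716 (mean ± SD, n = 3) in c-MYC/FOXO1AAA. Its mean was thus highest in the group with the lowest Egfr. The tumour groups overlapped in Hbegf, however, and their difference (log2 fold change -0.38, SE 0.33) was not past the threshold. Tgfa, another EGFR ligand, fell by 2.31 from NL to c-MYC and rose by 1.47 from there to c-MYC/FOXO1AAA (adjusted limma p 0.000222 and 0.0296). Nrg4, a neuregulin, changed by -2.41 and by a further -1.93 (adjusted limma p 6.92e-05 and 0.00168).

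Of 10 tested genes that encode HGF, the related ligand MSP, its receptor and their proteases and inhibitors, 4 rose and 5 fell from NL to c-MYC. Hgf, the MET ligand made by stellate and endothelial cells, held 42, 34, 22 and 40 reads in NL, 3, 4 and 6 reads in c-MYC and 43, 90 and 60 reads in c-MYC/FOXO1AAA. It fell by 3.36 from NL to c-MYC (SE 0.32, adjusted limma p 1.56e-05) and rose by 2.93 from c-MYC to c-MYC/FOXO1AAA (SE 0.35, adjusted limma p 0.000164), while Met itself did not differ past the threshold between the tumours. The part of the stellate cell and fibroblast markers in this was not tested. Mst1, which encodes MSP, was 267 FPKM ± 16.3 (mean ± SD, n = 4) in NL, 32 ± 4.02 (mean ± SD, n = 3) in c-MYC and 8.55 ± 2.93 (mean ± SD, n = 3) in c-MYC/FOXO1AAA. Its receptor gene Mst1r rose by 3.88 in c-MYC (adjusted limma p 5.17e-05), from a NL mean of 0.16 FPKM that was 0.103 FPKM without NL 3, and the protease inhibitor Spint1 by 5.05 and the protease gene St14 by 3.59. Spint1 held only 2, 0, 4 and 1 reads in NL. With FOXO1AAA 2 were higher than in c-MYC (Hgf and Plau) and 7 lower, among them the HGF activators Hgfac (-3) and Hpn (-2.89) and the inhibitor Serpina5 (-3.16). Hepatocyte markers fell beside these genes, 9 of 10 from NL to c-MYC and 6 of 10 between the tumours, where 2 rose, and their part was not tested.

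Transcripts that ERK signalling is known to induce mostly rose from c-MYC to c-MYC/FOXO1AAA, and so did 9 of 19 tested inhibitors that feed back on receptors. Of 11 tested ERK-responsive genes, 1 rose and 5 fell from NL to c-MYC, and 10 rose and none fell from c-MYC to c-MYC/FOXO1AAA. With the same FPKM total, the falls of the 5 from NL to c-MYC were smaller. Their log2 fold changes were then -5.51 (Phlda1), -2.85 (Ccnd1), -0.93 (Etv5), -0.37 (Ier2) and -0.28 (Spsb1). Egr1, an immediate early transcription factor, was 3.25 FPKM ± 1.25 (mean ± SD, n = 4), 3.64 ± 2.27 (mean ± SD, n = 3) and 41.7 ± 9.13 (mean ± SD, n = 3) in the 3 groups. Leaving out c-MYC 2 took the c-MYC mean of Egr1 to 2.35 FPKM. The largest increases over c-MYC were those of Spsb1 (6.67), Etv4 (5.11), Etv1 (3.76) and Egr1 (3.67), on the log2 scale. In the c-MYC libraries Spsb1 held 9, 15 and 23 reads, Etv4 0, 2 and 1 and Etv1 2, 6 and 7. The size of these changes is therefore uncertain. The remaining gene, Ccnd1, fell by 3.77 from NL to c-MYC and differed by 1.2 between the tumours (adjusted limma p 0.143). Relative to NL, 8 of the 11 genes were higher in c-MYC/FOXO1AAA and 2 lower, Phlda1 and Ccnd1. Phlda1 was at 57.7 FPKM in NL, 0.672 in c-MYC and 1.83 in c-MYC/FOXO1AAA. Of 19 tested feedback inhibitors, 2 rose and 6 fell in the first step, and 9 rose and 1 fell in the second. Relative to NL, 11 were higher in c-MYC/FOXO1AAA and 4 lower (Errfi1, Cblc, Spry4 and Dusp6). Errfi1, an inhibitor of EGFR, fell from 415 FPKM ± 79.5 (mean ± SD, n = 4) in NL to 12.3 ± 5.28 (mean ± SD, n = 3) in c-MYC and was 10.1 ± 4.45 (mean ± SD, n = 3) in c-MYC/FOXO1AAA, and the tumour groups overlapped. Spry4 (-3.23), Spred1 (-2.50) and Dusp6 (-2.39) fell with it in c-MYC. Dusp5, an ERK phosphatase, rose by 4.9 between the tumours, from 0.333 FPKM ± 0.125 (mean ± SD, n = 3) to 9.58 ± 2.11 (mean ± SD, n = 3), and Spred1 rose by 4.56, Spry2 by 3.96 and Dusp4 by 3.13. Cblc was the gene that fell (-2.56), and its c-MYC/FOXO1AAA mean of 2.17 FPKM was 1.19 FPKM without c-MYC/FOXO1AAA 3. In the second step 6 of 8 stellate cell and fibroblast markers and 6 of 7 tested skeletal muscle markers rose as well and none fell, and their part in these lists was not tested.

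**Figure D4:**
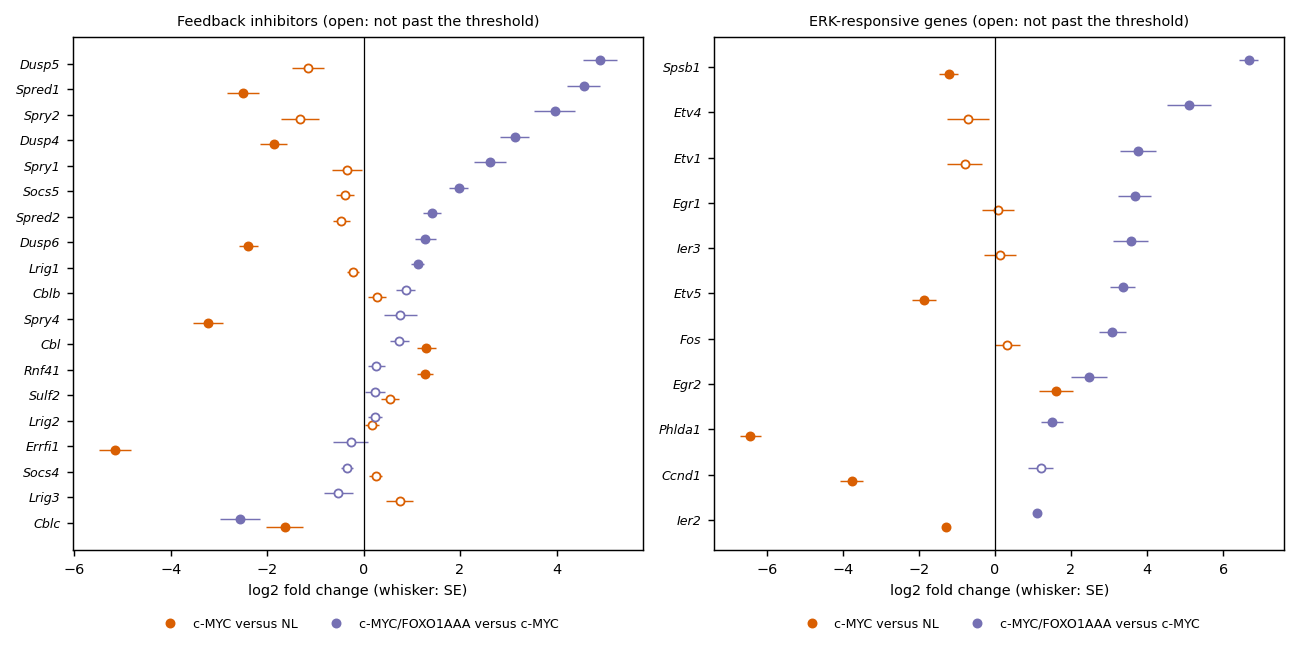
Log2 fold changes (x axis) of the tested feedback inhibitors (left) and ERK-responsive genes (right), 1 gene per line on the y axis, in c-MYC versus NL and in c-MYC/FOXO1AAA versus c-MYC, with the SE as whiskers and filled points past the threshold of limma treat. Of 11 ERK-responsive genes 10 lie to the right past the threshold in c-MYC/FOXO1AAA versus c-MYC, against 1 in c-MYC versus NL.

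Among liver genes that FGF15 or FGF21 control or that control Fgf21, 9 of 12 fell from NL to c-MYC and none rose. Cyp7a1, the rate-limiting enzyme of bile acid synthesis, was 1370 FPKM ± 418 (mean ± SD, n = 4) in NL, 37.2 ± 36.2 (mean ± SD, n = 3) in c-MYC and 13.3 ± 7.57 (mean ± SD, n = 3) in c-MYC/FOXO1AAA, with no call between the tumours (adjusted limma p 0.425). Without c-MYC 2 the c-MYC mean of Cyp7a1 was 16.3 FPKM. Cyp8b1, the sterol 12-hydroxylase, changed by -6.63 and Nr0b2, a nuclear receptor that restrains Cyp7a1, by -6.21. The c-MYC mean of Nr0b2 was 1.1 FPKM, and 0.441 FPKM without c-MYC 3. From c-MYC to c-MYC/FOXO1AAA 6 fell, among them the Fgf21 regulators Mlxipl (-3.37), Ppara (-2.62) and Creb3l3 (-2.57), and 1 rose (Ppargc1a, 2.02, adjusted limma p 0.0472). The c-MYC mean of Ppargc1a moved from 0.0981 to 0.0436 FPKM when c-MYC 2 was left out. The 10 hepatocyte markers moved with this list, with 9 lower in the first step and 2 higher and 6 lower in the second, and their part was not tested.

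Of 23 adaptors and effectors, 5 rose and 1 fell from NL to c-MYC, where 24.5% of all genes rose and 23.6% fell. Nras was up by 1.46. Between the tumours 4 rose with FOXO1AAA and 4 fell, beside 15.9% and 12.7% of all genes. Gab1, a docking protein of MET and EGFR, rose from 5.75 FPKM ± 0.448 (mean ± SD, n = 3) to 37.4 ± 5.71 (mean ± SD, n = 3), by 2.69 on the log2 scale (SE 0.13, adjusted limma p 3.06e-07). Grb10 was 18.2 to 77.1 FPKM in c-MYC/FOXO1AAA and 1.84 to 4.09 FPKM in c-MYC (log2 fold change 3.34, adjusted limma p 0.00115), with a mean of 38.5 FPKM in the former that was 19.1 FPKM without c-MYC/FOXO1AAA 2, whereas Grb14 (-3.24) and Grb7 (-1.68), an adaptor of ERBB2, fell. Of 25 other receptor tyrosine kinases tested, 6 rose and 9 fell from NL to c-MYC, and 9 rose and 4 fell from there to c-MYC/FOXO1AAA. The same shares of all genes stand beside these counts. Igf1r, the receptor for IGF1, rose the most, with 30, 13 and 47 reads in c-MYC and 4444, 4939 and 2862 in c-MYC/FOXO1AAA (log2 fold change 6.71, SE 0.42, adjusted limma p 7.39e-07). Pdgfra (4.86), which is also a gene of fibroblasts, and Ddr1 (3.49) were among the others that rose. Their c-MYC means were 0.197 FPKM, or 0.0946 FPKM without c-MYC 3, and 1.49 FPKM, or 0.888 FPKM without c-MYC 2. Ntrk2 showed the largest decrease in c-MYC versus NL (-7.29, adjusted limma p 1.13e-07), and held 4, 0 and 1 reads in c-MYC.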

How the data were processed

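RNA from 10 mouse livers or liver tumours was sequenced, and each library was assigned to NL, c-MYC or c-MYC/FOXO1AAA by its title. The authors counted reads by gene and deposited log2 FPKM, in which a prior count averaging 2 had been added. FastQC 0.11.7 and GRCm38 are named in the submitters' processing notes. The aligner, counter and strand setting are not given in the sources used here. Of 17069 entries, 372 had no symbol or value and were left out. Whole reads were recovered from the floor of each gene, with a single length for 99.97% of 16697 genes within 0.001 reads.

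The deposited log2 values were fitted with limma 3.58.1 (R 4.3.3, statmod 1.5.0), with a mean per group over all 10 libraries and trend and robust estimation. Genes with at least 1 FPKM in at least 3 libraries were kept (14017), which included all 10 members. Changes above 1.5-fold were tested with treat (2-sided), and a Benjamini-Hochberg adjusted p under 0.05 was called. Fold changes on the scale with the prior count understate those of low genes. The model of the study, which needs counts, was not used, because the deposited unit is log2. Shares were compared by exact permutation tests with SciPy 1.17.1. The steps were tested on simulated data. The p-values measure the spread between these libraries, which match the mice and livers of the methods in number.

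The genes and lists were chosen with earlier results of these data known. Named from each list were up to 4 called genes per comparison with the largest changes and a mean of at least 1 FPKM in a group, and genes behind counts of 5 or fewer. Alternatives were other pseudocounts, filters, scalings, thresholds and estimation, fits on the groups compared, a replicate block and each library left out in turn. Some genes that this rule names are not reported here.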

Additional observations from a re-analysis of the deposited data

Results flagged for a closer look

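In each group of 4 samples, the log2 FPKM of each of the 10 genes and the Fgfr4 and Egfr shares were examined for a library far from the rest, 12 groups in all, of which chance flags about 1 in 20. Fgfr3 in NL stood out in NL 3, at a log2 FPKM of 3.42, where the gap to the nearest library took a fraction of 0.849 of the whole range, above the limit for 4 samples. The Egfr share of the summed FPKM of Egfr, Erbb2 and Erbb3 stood out in NL 2, at 51.2% against up to 69.3% in the other NL libraries, with a fraction of 0.857. In NL 2 Egfr was lowest and Erbb3 highest of the NL libraries.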

How the results depend on the processing

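For the log2 fold changes of the 10 genes, over the alternatives other than leaving out a library, 309 values kept their direction and their side of the threshold, 9 lost a call, 6 gained one and 3 changed sign. Over those that left out a library the numbers were 178, 18, 1 and 3. Leaving out libraries for the means of named list genes was added after seeing the data. The sign changed for Fgfr4 in c-MYC versus NL (0.12) and for Met in c-MYC/FOXO1AAA versus NL (0.06) with the same FPKM total, and for Met in c-MYC/FOXO1AAA versus c-MYC with the same median (-0.03). Without each library in turn, the latter ranged from -0.10 to 0.31. With a filter of a mean of at least 5 FPKM, fewer genes were tested, and the pathway genes called were 32, 31 and 41 in the 3 comparisons in place of 58, 63 and 78. Of the 10 genes, 6 were called in c-MYC/FOXO1AAA versus c-MYC without c-MYC 1, without c-MYC/FOXO1AAA 1 or with a threshold of 2-fold, in place of 9. The scaling of the libraries bounds every comparison with NL. At 0 to 20 reads, the c-MYC levels of Fgfr2 and Fgf21 were limited by depth.

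With the replicate number as a block (replicate block), 7, 9 and 9 of the 10 genes and 55, 61 and 74 pathway genes were called. Deviations of same-numbered libraries correlated at -0.040 to 0.027, so the numbers were not taken to pair the samples, and NL 4 has no partner.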

Other observations

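The other 4 lists of cell type markers were summed as for hepatocytes. The 7 endothelial markers, all listed, summed to 61.5 to 74.6 FPKM in NL, 11.7 to 19.7 in c-MYC and 29.3 to 44.1 in c-MYC/FOXO1AAA. Within that list Cdh5, which encodes VE-cadherin, was at 4.61 FPKM in NL and in c-MYC and at 26 FPKM in c-MYC/FOXO1AAA, while Clec4g, a gene of liver sinusoids, was at 33.6, 0.227 and 0.571 FPKM. The 6 macrophage markers summed to 174 to 305 FPKM, 50.1 to 60.7 FPKM and 40.5 to 66 FPKM, and were led in NL by the Kupffer cell gene Clec4f (208 FPKM in NL, 4.66 in c-MYC and 18.1 in c-MYC/FOXO1AAA). Not all of these markers fell with their sum. Cd68 stood at 7.02, 34.5 and 23.3 FPKM in the same order of groups, and Timd4 at 3.27, 6.28 and 0.634 FPKM. Of the 6, 1 rose and 2 fell past the threshold from NL to c-MYC. Between the tumours 1 rose with FOXO1AAA and 1 fell. The cholangiocyte and progenitor markers, of which 6 of 7 were listed, summed to 30.9 to 36.5 FPKM, 26.1 to 44.8 FPKM and 32.7 to 40.8 FPKM. In c-MYC their sum held more Epcam (15.1 FPKM, against 1.24 in NL and 1.99 in c-MYC/FOXO1AAA) and less Spp1 (1.55 FPKM, against 19.7 and 25.5). The lymphocyte markers, of which 4 of 6 were listed, summed to 2.55 to 4.39 FPKM, 2.14 to 3.17 FPKM and 8.07 to 12.4 FPKM, and Cd79a took most of the last (9.52 FPKM). The part of these markers in the levels of the receptor genes was not tested.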
